A study of Drosophila melanogaster with 4 samples.

Results

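The centromere-proximal end of chromosome arm 2L and its separately assembled heterochromatic scaffold, 2LHet, were examined for the stretch where histone H3 trimethylated at lysine 9 (H3K9me3) changes from scattered to nearly continuous. The data are chromatin immunoprecipitation with sequencing (ChIP-seq) from wild-type Drosophila melanogaster embryos of strain Oregon-R, aged 14 to 16 h, taken with an antibody against H3K9me3 sold by abcam. There were 2 ChIP libraries, called replicates 1 and 2, and 2 input libraries, and all came from the same genotype and stage. The deposited files list the clusters, or stretches of enrichment, that the authors called in each ChIP library, and a further list for the whole series. Consecutive windows of 5 kb were laid over the last 3 Mb of 2L and over the whole of 2LHet. This gave 600 windows on the arm and 74 on the scaffold, 674 in all, of 27949 in the 13 sequences that hold clusters. Each window was given its covered share, the percentage of its bases inside clusters.

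H3K9me3 is the histone mark of constitutive heterochromatin. In Drosophila it is written by the methyltransferases Su(var)3-9 and Eggless, and it is bound by Heterochromatin Protein 1, which packs the marked chromatin. Pericentric heterochromatin, on both sides of each centromere, is rich in satellite repeats and the remains of transposons and holds few genes. One of these, light on 2L, is known to need its heterochromatic surroundings for normal expression, whereas euchromatic genes moved next to heterochromatin are silenced in part of the cells, the classic position effect variegation. The place where one state gives way to the other is therefore of interest for each arm. The positions below are on FlyBase release 5, in which 2L is 23.0 Mb long with the centromere beyond its high end, and 2LHet is a scaffold of 369 kb kept apart from the arm. An annotation and genome of this release were not used here, so no gene, repeat or sequence is named at a position. Whole embryos were used, so a mark in few cells and a weak mark in all cells cannot be told apart.

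Split into 2 levels, the last 3 Mb of 2L changed from scattered to dense coverage 845 kb before the end of the arm. The border was placed where a split into 2 levels left the smallest summed squares, over the 600 windows of the arm. Such a split always returns a single place, so it does not show that the arm has only that change. The place also depended on the rule: alternatives put it 800 kb (low-scoring clusters dropped) and 880 kb (100 kb stretches) from the end. It fell at base 22176545 in replicate 1, at base 22166545 in replicate 2, and at base 22166545 in the mean of both libraries, which is used from here on. The border thus lay 840 kb from the end ± 7.07 (SD, n = 2). With windows of 1 kb both libraries gave the same base, 22168545. The libraries did differ in coverage here: the window from 22171545 was covered to 35.8% in replicate 1 and 67.0% in replicate 2. Why the 5 kb windows placed the border 10 kb apart was not tested. The part of the last 3 Mb on the telomere side of the border is called distal and the part on the centromere side proximal.

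The distal 2.155 Mb were covered to 6.96% in replicate 1 and 6.94% in replicate 2. The proximal 0.845 Mb were covered to 78.4% and 77.9%, and 2LHet to 66.8% and 64.0%. Both libraries gave this order, and the levels of the 3 segments did not overlap between them. Over the whole last 3 Mb the share was 27.0% ± 0.124 (SD, n = 2). Farther out, the other 20.0 Mb of 2L were covered to 2.24% ± 0.139, so the distal part as a whole was more covered than the bulk of the arm, in both libraries. This excess was uneven and did not centre on the border. The 500 kb next to the border were covered to 4.04% ± 0.180, and the part from 1500 to 2155 kb away to 11.7% ± 0.0435.

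**Figure D1:**
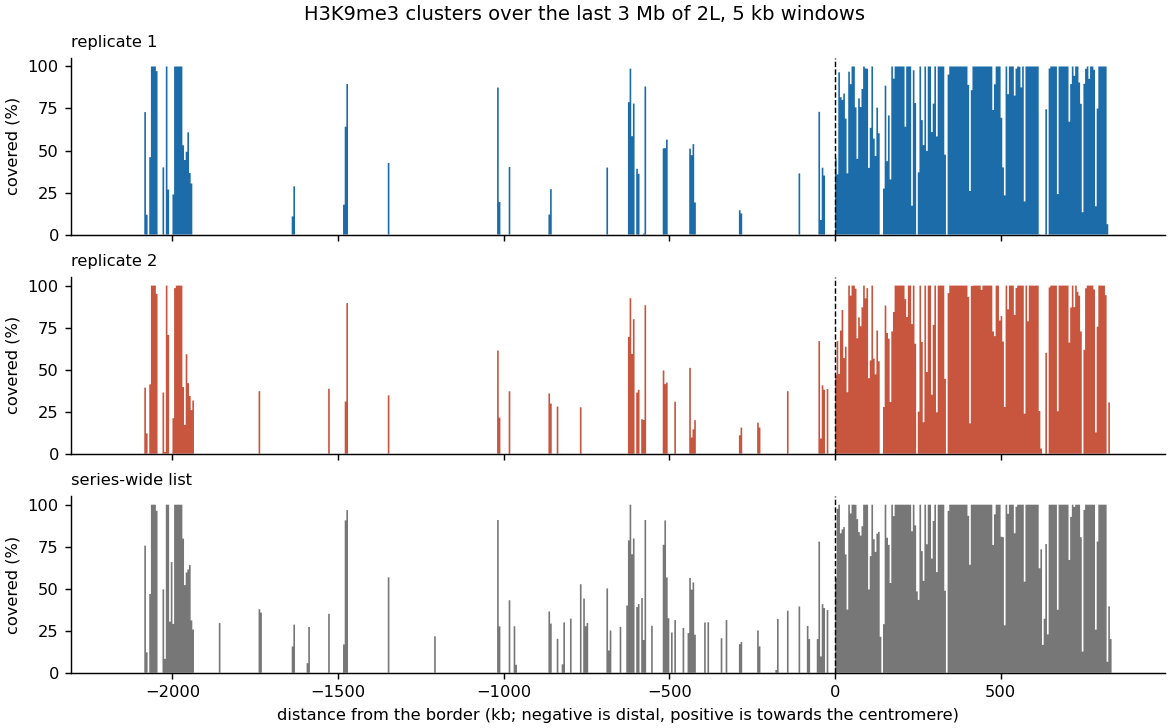
Covered share (y axis, percent of each 5 kb window) against distance from the border (x axis, kb) for replicate 1, replicate 2 and the series-wide list over the last 3 Mb of 2L; the dashed line marks the border. In the libraries distal coverage is scattered, 6.96% and 6.94% in all, and proximal coverage is dense, 78.4% and 77.9%, with a few gaps.

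The windows fell into 3 classes by their share in both libraries: marked, at 50% or more; intermediate, at 10 to 50%; and gaps, at under 10%. Of the 431 distal windows 19 were marked in both libraries and 365 were gaps in both. Of the 169 proximal windows 131 were marked and 12 were gaps, and of the 74 on 2LHet 50 were marked and 16 were gaps. Windows marked in both libraries made up 13.7% of all windows of the 13 sequences, and gaps 76.9%. On 2L outside its last 3 Mb the same shares were 1.15% and 93.6%. The marked share was thus 4.41% distally, under the whole-genome level and above that of the rest of 2L, and it was 77.5% proximally and 67.6% on 2LHet. A further 19 distal, 14 proximal and 2 scaffold windows were intermediate in both libraries, and 28, 12 and 6 were put in different classes by the libraries. Full coverage in both libraries was reached by 76 proximal windows, 26 scaffold windows and 8 distal windows. No coverage in either library was seen in 363 distal, 10 proximal and 15 scaffold windows.

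Coverage rose over several windows at the border. The 4 windows directly distal to it, 20 kb from 22146545 to 22166544, held no cluster in either library. The first proximal window was covered to 45.4% in replicate 1 and 46.5% in replicate 2. A running mean over 50 kb rose from 20% or less to 50% or more within 30 kb in replicate 1 and 40 kb in replicate 2, or 35 kb ± 7.07 (SD, n = 2). This distance depends on the running mean, which smooths an abrupt step: it was 15 kb with a running mean of 25 kb. The rise is thus known only to within the width used to measure it.

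Over the 250 kb on either side, the share stepped from 3.86% to 72.7% in replicate 1 and from 5.28% to 73.3% in replicate 2. The step was 68.4 percentage points ± 0.567 (SD, n = 2). Since the border was located on these windows, the step is a description of where it was put. At the border placed from replicate 1 alone, the step in replicate 2 was 66.0 points.

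In steps of 50 kb, the 50 kb next to the border on the distal side were covered to 17.5% ± 2.58 and the next 50 kb outwards to 0% in both libraries. On the proximal side the first 50 kb were covered to 69.3% ± 3.15 and the second to 88.2% ± 2.83 (SD, n = 2 each). The third step fell to 46.5% ± 0.714, in the same way in both libraries, before coverage returned to 82.2% ± 0.884. Coverage was complete, 100% in both libraries, between 350 and 400 kb inside the border. A second low step followed between 600 and 650 kb, at 48.0% ± 0.967. Coverage inside the border thus had its own dips, each larger than the spread between the libraries.

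At the level of single clusters, both libraries started the proximal stretch at nearly the same base. In replicate 1 the first proximal cluster ran from 22168828 to 22171095, with a score of 0.98, and in replicate 2 from 22168681 to 22171007, with a score of 0.92. The score is the authors' own and its scale is not stated, so it serves only to rank clusters within a list. Before these clusters lay 35528 uncovered bases in replicate 1 and 22392 in replicate 2, which has an additional cluster at 22144367 to 22146288 with a score of 0.75. On the far side of that interval 3 small clusters stood in front of the border in each library. The largest of them ran from 22129557 to 22133299 in replicate 1, with a score of 1.29, and from 22129513 to 22133444 in replicate 2, with a score of 1.61.

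The outermost clusters of the proximal stretch had low scores, and scores were higher further in. Of the clusters with their midpoint in the first 50 kb, 5 of 6 in each library had a score under 2, and the median was 1.15 in replicate 1 and 1.39 in replicate 2. In the next 50 kb 1 of 6 was under 2 in each library, and the medians were 2.39 and 2.53. These 6 include a cluster that begins within the first 50 kb, at 22212071 in replicate 1 and 22211990 in replicate 2, with scores of 2.59 and 2.65. The first cluster at 2 or more began 29267 bp inside the first proximal cluster in replicate 1, at 22198095, and 29684 bp inside it in replicate 2, at 22198365. When clusters scoring below the median of their list were dropped, the border of the mean of both libraries moved 45 kb inwards, to 22211545. Each library alone gave that base too, though replicate 1 alone had started from 22176545. The filter removes the low-scoring clusters at the edge, so this move restates their low scores. Scores did not go on rising: between 100 and 200 kb the medians were 1.64 and 1.61, and between 200 and 400 kb 2.63 and 2.73.

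**Figure D2:**
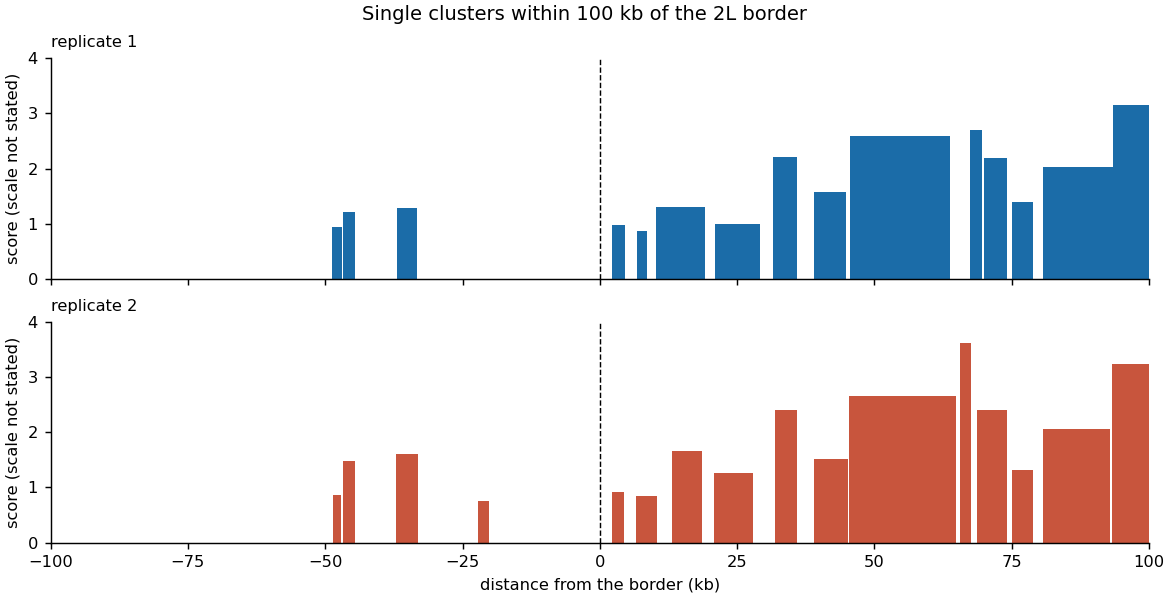
Clusters of replicate 1 (top) and replicate 2 (bottom) within 100 kb of the border, as bars from start to end (x axis, kb from the border) with the authors' score as height (y axis, scale not stated). The first proximal clusters have scores of 0.98 and 0.92, and the first at 2 or more begin about 30 kb further in, at 22198095 and 22198365.

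Distal to the border, the marked windows formed 9 blocks of 1 to 5 windows. The 3 blocks of at least 2 windows held 13 of the 19 marked windows. The longest covered 25 kb, at 20171545 to 20196544, at 100% in replicate 1 and 99.7% in replicate 2, and lay 1970 kb from the border. A block of 20 kb at 20101545 to 20121544 was covered to 99.3% and 98.8%. The other block of 20 kb, at 21541545 to 21561544 and 605 kb from the border, was covered to 78.5% and 75.3%. The remaining 6 blocks were single windows. Of these the nearest to the border, at 22116545 to 22121544, lay 45 kb away and was covered to 73.0% and 67.0%.

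Counted base by base, the bases covered in both libraries formed 29 distal regions with a median of 2132 bp. A pair of them was longer than 20 kb. One spanned 25940 bp from 20172585 to 20198524, and the other 21813 bp from 20099485 to 20121297. The first had scores of 2.98 in replicate 1 and 3.21 in replicate 2, and the second of 2.88 and 2.91. These scores were above the median of the proximal clusters, which was 2.12 in replicate 1 and 2.10 in replicate 2, whereas the distal clusters as a whole had medians of 1.03 and 0.94. On the other 20.0 Mb of 2L, 134 regions were covered in both libraries, of which 1 reached 10 kb, at 10220 bp. The long distal regions were therefore longer than any region elsewhere on the arm outside the last 3 Mb. Their loci were not identified.

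The distal stretch was uneven, and 6 zones were drawn on it after its profile had been seen. The outermost 50 kb held no cluster in either library. The next 190 kb, to 20251544, contained both long regions and were covered to 38.9% ± 0.526 (SD, n = 2). From there a sparse zone of 1285 kb, to 21536544, was covered to 1.85% ± 0.0194, and 241 of its 257 windows held no cluster in either library. Its longest uncovered stretch, from 20820148 to 21147171, spanned 327024 bp. The fourth zone, 215 kb to 21751544, was covered to 18.3% ± 0.736. It held the third long block, whose pair of regions at 21543073 to 21551169 and 21553619 to 21560440 scored 2.81 and 2.64 in replicate 1 and 2.88 and 2.77 in replicate 2. The fifth zone, 360 kb to 22111544, was covered to 1.12% ± 0.336. Its limits were drawn around a stretch with few clusters, so this low share follows from the choice. The last 55 kb before the border were covered to 15.9% ± 2.35. As drawn, 360 kb with few clusters lay between the intermediate zone and the margin of the dense stretch. In steps of 500 kb, which do not use the zones, coverage did not climb steadily towards the border either. It was 2.79% ± 0.585 from 1000 to 1500 kb away, 7.76% ± 0.282 from 500 to 1000 kb and 4.04% ± 0.180 in the last 500 kb.

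Inside the border, coverage was broken by few long gaps. Bases covered in both libraries formed 67 regions with a median of 5998 bp, of which 22 reached 10 kb and held 73.3% of the shared bases. The longest of these spanned 60000 bp, from 22506784 to 22566783, and scored 2.86 in replicate 1 and 2.82 in replicate 2. It was followed in length by a region of 33636 bp from 22841212 to 22874847, scored 2.54 and 2.48, and by one of 33012 bp from 22345468 to 22378479, scored 2.28 and 2.18. The distal clusters, by contrast, had median lengths of 2521 bp and 1890.5 bp, against 6957 bp and 6611 bp for the proximal clusters.

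Stretches uncovered in both libraries numbered 53 proximally, with a median of 1767 bp. Of these 8 were at least 5 kb long, and they held 50.1% of the proximal bases uncovered in both. The longest, 18038 bp from 22993507 to 23011544, reached the end of the arm sequence. The next were 14936 bp at 22786696 to 22801631, which lay 620 kb inside the border, and 13807 bp at 22301352 to 22315158, which lay 135 kb inside it. These 2 internal gaps lay in the low 50 kb steps described above. The other 5 measured from 5131 to 8930 bp. In the series-wide list 40.4% of the gap at 22786696 was covered and 9.57% of that at 22301352, so the first was less empty in that list. None of the 8 was wholly uncovered there, but the share was as low as 1.32%, in the gap at 22498920 to 22506770.

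The scaffold 2LHet resembled the proximal arm in its clusters and differed in its gaps. Its clusters had median lengths of 8129 bp in replicate 1 and 5882 bp in replicate 2, and median scores of 2.36 and 2.34. It was covered to 65.4% ± 2.04 (SD, n = 2), lower than the proximal arm by 11.6 percentage points in replicate 1 and 13.9 in replicate 2. The longest region shared by the libraries spanned 40846 bp, from 168496 to 209341, and scored 2.79 in replicate 1 and 2.82 in replicate 2. The next was 19239 bp long, from 283737 to 302975, and scored 2.53 and 2.34. The third was 19183 bp long, from 242561 to 261743, and scored 3.31 and 3.20. Coverage reached from near its first base, at 267 in replicate 1 and 578 in replicate 2, to its last base in both libraries.

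A pair of long gaps divided the scaffold into 3 blocks. The first gap spanned 56724 bp at 62733 to 119456 and the second 21497 bp at 214611 to 236107. In the series-wide list they were covered to 0.0705% and 0.186%, so they were nearly empty there too. The 3 blocks, of 62.7, 95.2 and 133 kb, were covered to 80.4% ± 5.92, 87.6% ± 1.12 and 80.9% ± 3.68 (SD, n = 2 each). With all stretches of at least 10 kb that were uncovered in both libraries left out, 2 on 2LHet and 3 on the proximal arm, the shares were 83.0% ± 2.59 and 82.7% ± 0.424 (SD, n = 2 each), a difference within the spread between the libraries. These stretches were chosen as uncovered in the same libraries, so both shares rose by construction. On 2LHet 78221 bp were left out, against 46781 bp on the proximal arm, so the near-equal shares do not show that the segments are alike. The lengths in the file headers may count unsequenced bases, in which no cluster can be called. How many lie in these gaps was not measured, so an unmarked stretch and an unsequenced one cannot be told apart. The remaining gaps of at least 5 kb on the scaffold measured 8444 bp, at 261775 to 270218, and 5057 bp, at 145126 to 150182.

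**Figure D3:**
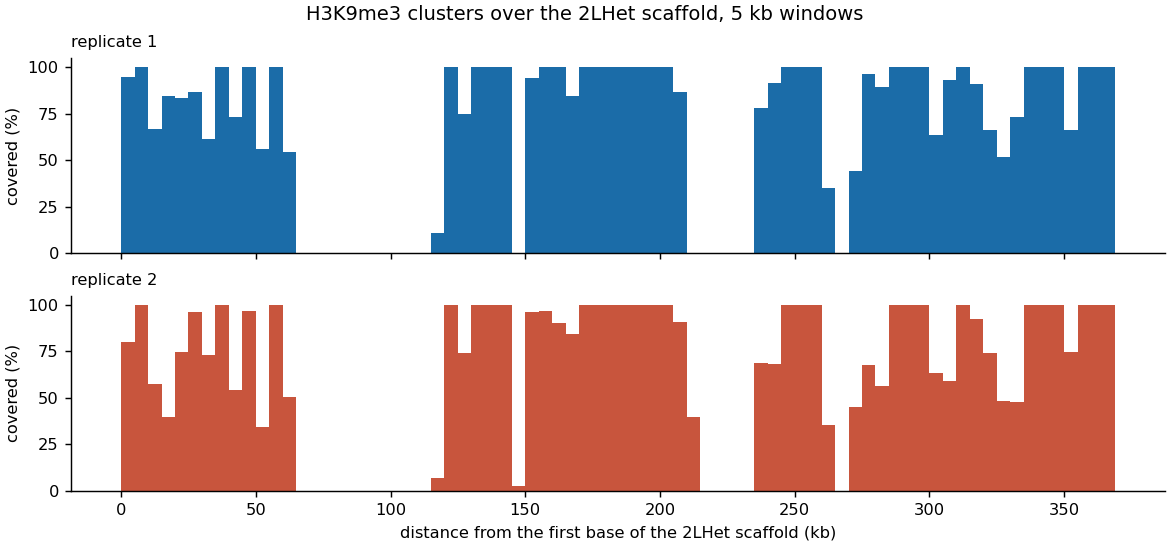
Covered share (y axis, percent of each 5 kb window) along 2LHet (x axis, kb from its first base) in replicate 1 (top) and replicate 2 (bottom). A pair of gaps, of 56724 and 21497 bp, separates 3 blocks covered to between 80.4% and 87.6% on average.

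Most windows were alike in both libraries. Of the 674 windows 628, or 93.2%, were in the same class in both libraries, and 0 were marked in one and a gap in the other. Of the 46 windows in different classes replicate 1 was higher in 24 and replicate 2 in 22. The largest difference was 59.9 points, at 22396545 to 22401544, covered to 17.1% in replicate 1 and 77.1% in replicate 2. The next was 49.1 points at 22176545 to 22181544, just inside the border, with 96.5% and 47.4%. The Jaccard index, the bases covered in both libraries as a part of those covered in either, was 0.930 proximally, 0.912 on 2LHet and 0.706 distally. Where clusters of both libraries overlapped one to one, their edges differed by a median of 114.5 bp proximally (29 pairs), 141.5 bp distally (23 pairs) and 206.5 bp on the scaffold (16 pairs). These differences were well below the size of a window, with 90th percentiles of 560.2, 814.5 and 934.1 bp in the same order. The pairs leave out clusters that were split or merged between the libraries. Proximally there were 59 clusters in replicate 1 and 60 in replicate 2, so the medians hold for only part of them.

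The series-wide list, labelled as the set of replicates and so no independent sample, put the border at the same base, 22166545. It covered 85.0% of the proximal part, 10.8% of the distal part and 71.2% of 2LHet. Of its 70 distal clusters 28, or 40.0%, overlapped neither library, against 10 of 59 proximally and 0 of 22 on 2LHet. These 28 distal clusters were short, with a median of 1532.5 bp. Of these, 11 lay within 500 kb of the border, 11 between 500 and 1000 kb, 1 between 1000 and 1500 kb and 5 farther out. Within 500 kb this list covered 8.58%, against 4.04% ± 0.180 in the libraries. The near-empty zone before the border was covered to 4.80% in this list.

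For comparison with 2L, the same procedure was run on the last 3 Mb of 3L and of X. On 3L the border lay at base 23008558 in both libraries, 1535 kb from the end. The running mean over 50 kb rose there within 25 kb in both libraries, against 30 and 40 kb on 2L. On 2L the series-wide list gave 25 kb, but 3L was not measured in that list. The contrast between the arms in the libraries is smaller than the width of the running mean. The 2 borders can therefore not be ranked by sharpness. The step over 250 kb was smaller on 2L than on 3L by 12.4 points in replicate 1 and 10.4 in replicate 2. The size of this contrast depended on the flank. With flanks of 100 kb the mean step was 70.0 points on 2L and 78.1 on 3L, and with 500 kb it was 75.8 and 80.4. The first 50 kb inside the border were covered to 69.3% ± 3.15 on 2L and 88.3% ± 0.460 on 3L, and the last 50 kb outside it to 17.5% ± 2.58 and 4.31% ± 1.88 (SD, n = 2 each). From the border to the end of the arm 2L was covered to 78.2% ± 0.401 and 3L to 84.5% ± 1.41, a difference of -6.31 points ± 1.01 (SD, n = 2) for 2L minus 3L. Gap windows were 12 of 169 on 2L and 5 of 307 on 3L. Counted as stretches of at least 5 kb uncovered in both libraries, the arms were closer, at 9.47 per Mb on 2L and 7.17 on 3L. The longest such stretch was 18038 bp on 2L and 15090 bp on 3L. Distal coverage was 6.95% ± 0.0153 for 2L and 2.95% ± 0.0684 for 3L, though the distal stretch was 2155 kb long on 2L and 1465 kb on 3L. At equal distance, over the 500 kb distal to each border, the shares were alike, at 4.04% ± 0.180 on 2L and 4.02% ± 0.566 on 3L.

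On X the split into 2 levels fell 1040 kb from the end, but it marked no comparable border. The proximal part of X was covered to 22.5% ± 1.24, and 133 of its 208 windows were gaps in both libraries. The step over 250 kb was 28.5 points ± 1.49 on X and 68.4 ± 0.567 on 2L, larger on 2L by 39.2 points in replicate 1 and 40.5 in replicate 2. The differences of 2L from 3L and from X in proximal share and in step had the same sign in both libraries and exceeded their spread. With 2 libraries of a single condition no test between arms was made, and each arm is a single item. Where the assembled sequence of each arm ends also sets how much of its heterochromatin is counted.

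**Figure D4:**
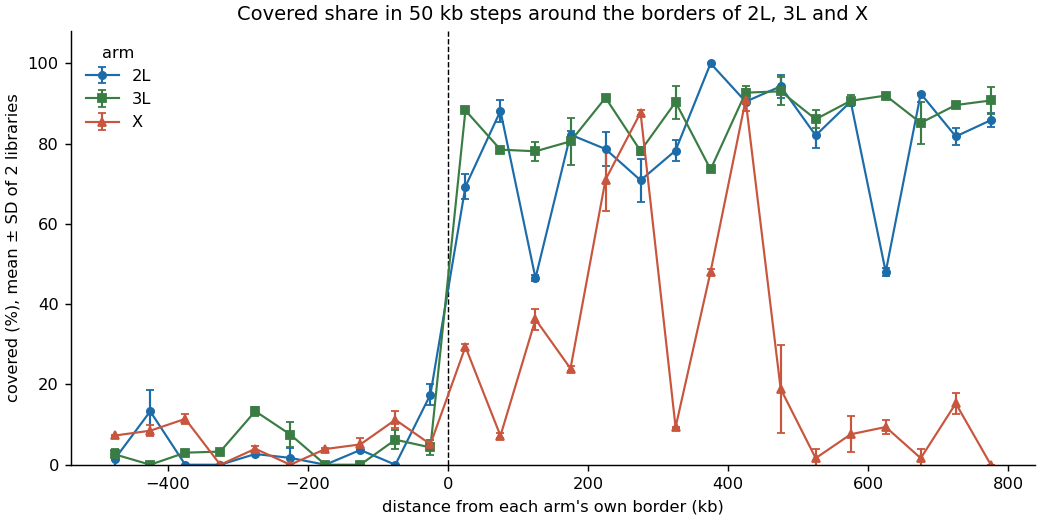
Covered share in steps of 50 kb (y axis, mean of 2 libraries with SD as error bars) against distance from each arm's own border (x axis, kb) for 2L, 3L and X. On 2L and 3L coverage steps up within 1 step, to 69.3% and 88.3%, with dips to 46.5% and 48.0% on 2L, while X reaches 29.4% in its first step and later rises and falls.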

How the data were processed

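Clusters were called by the authors from reads aligned with Bowtie 0.12.7 (aligner per the submitters' processing notes) after crosslinking in 1.8% formaldehyde (per the labels' protocols). Positions follow FlyBase release 5, per the file headers. For every cluster the authors deposited its span and a score above 0 of unstated scale. Neither the caller nor its threshold is given in the sources used here. Read depth is unknown, since the lists carry no counts. Values of the 2 inputs were not used.

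Covered shares, borders, blocks and gaps were computed in Python 3.11.15 with numpy 2.4.6 from all clusters, cut at sequence ends. The functions were tested on simulated data. SDs are between the 2 ChIP libraries, and may be technical because separate embryo collections are not stated. No test was made, since the series has 1 condition and windows are not replicates. Windows, classes and regions were chosen with earlier results of these data known. Named regions are the border, the longest shared blocks, regions and gaps. The single distal window nearest the border, the small clusters around the border and the 6 zones were picked after their values were seen. Genes were not placed, since the reference gene table follows release 6. Alternatives covered the score limit, joining within 1 kb, the list, window size and phase, thresholds and each library alone.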

Additional observations from a re-analysis of the deposited data

How the results depend on the processing

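Leaving out 1 of 2 libraries can hardly move a mean by more than the SD of both, so the 12 such values say nothing about stability. Of the other 90 alternatives over 12 results, 48 left the value within the spread between the libraries (or, for counts, within 1.5 times; for the share in 1 class, within its exact 95% binomial interval), and 42 moved it. The binomial interval treats neighbouring windows as independent, which they are not, so it only sorts the values and measures no spread. The 90 still include the count results in each library alone, all of which stayed within 1.5 times. No difference changed sign. With clusters below the median score of their list left out, the share fell to 20.8% on the last 3 Mb and 61.1% on 2LHet, the border lay 800 kb from the end, the rise took 22.5 kb, the step was 57.7 points, 4 distal blocks and 28 proximal gap windows and 13 proximal gaps were found, 95.7% of windows shared a class and 2L minus 3L was -7.50 points. The series-wide list gave 31.7%, 71.2%, a rise of 25 kb, a step of 74.9 points, 35 marked distal windows in 16 blocks, 5 gap windows, 5 gaps and -4.33 points. Joining clusters within 1 kb gave 27.3% and a step of 69.7 points. Windows of 1 kb, 5 times as many, gave 125 marked distal windows in 25 blocks, 126 gap windows proximally and 100 on 2LHet, with 95.1% in the same class; the larger number of windows gives only part of this rise. Windows of 10 kb gave 8 in 4 blocks, 3 and 6, with a step of 67.2 points. The rule of 100 kb stretches placed the border 880 kb from the end. It asks for averages of at least 50% over 100 kb, so a stretch can start in sparse sequence outside the dense part. The rise was 15 kb and 50 kb with running means of 25 and 100 kb. The step was 70.0 and 75.8 points with flanks of 100 and 500 kb. At a threshold of 25%, 39 distal windows in 18 blocks were marked. With minimum gap lengths of 2 and 10 kb there were 25 and 3 gaps. Over the last 1 Mb of each arm, 2L minus 3L was -17.5 points, since 155 kb of that span on 2L lie outside its border. Where no reason is given, the cause was not tested. Without the stretches of 10 kb or more uncovered in both libraries, an alternative added after the data were seen, 2LHet was covered to 83.0%, higher by construction. No paired analysis was possible because the 2 ChIP libraries form 1 group and values of the inputs were not used here. Depth is unknown, so weak marking could go uncalled in gaps.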
